A study of Mus musculus with 9 samples.

Results

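The genes described here encode the proteasome of mouse brain oligodendroglial cells: its subunits, its activators and the factors that assemble it. The rule took every measured gene whose symbol starts with Psma to Psmg followed by a number. There were 46 such genes among 11315 measured genes. Of these, 7 encode alpha subunits and 7 beta subunits of the 20S core, 2 encode immunoproteasome subunits, and 4 encode chaperones that assemble the core. For the 19S cap, 6 encode ATPases of the base, 3 encode other base subunits, 8 encode lid subunits and 3 encode cap assembly chaperones. A further 4 encode activators and 1, Psmf1, encodes an inhibitor. Psmc3ip matched the symbol rule but is known as a meiotic recombination factor, not a proteasome subunit, and it is counted among the 46 only for completeness.

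The proteasome is the protease that degrades ubiquitin-tagged proteins. Alpha rings gate a barrel whose inner beta rings carry the caspase-like (Psmb6), trypsin-like (Psmb7) and chymotrypsin-like (Psmb5) sites, and the 19S cap recognises ubiquitin, unfolds the substrate with its ATPases and removes the ubiquitin with a lid enzyme. In cells exposed to interferon, the catalytic subunits are exchanged for immunoproteasome subunits, which changes the peptides made for presentation on MHC class I. Oligodendrocytes build large amounts of membrane protein, and proteasome activity is known to matter for their differentiation and survival.

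RNA sequencing had been done on cells sorted by fluorescence from the brains of C57BL/6 mice at postnatal day 60, with 9 libraries in 3 reporter groups of 3. NDRG1-eGFP cells are labelled as oligodendrocytes that myelinate, PLP-GFP cells as oligodendrocytes at a stage before myelination, and PDGFRa-GFP cells as progenitors. No other treatment or genotype is given, and each group is defined by its reporter alone. Whether the replicates are separate animals is not given, and p-values therefore describe the spread among these 9 libraries alone. Values are the authors' normalized values on a log scale taken as log2, and the median was 10.57 in every library. Depth is unknown, and in bulk RNA fewer cells of a type and less RNA per cell cannot be told apart.

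The labelled stages were checked against marker lists. The median of 14 oligodendrocyte markers lay between 17.14 and 17.15 in NDRG1-eGFP libraries, between 17.07 and 17.21 in PLP-GFP libraries and between 16.70 and 17.14 in PDGFRa-GFP libraries. The median of the 8 measured progenitor markers lay between 5.59 and 6.90 in NDRG1-eGFP libraries, between 6.64 and 6.87 in PLP-GFP libraries and between 6.32 and 8.47 in PDGFRa-GFP libraries, under the all-gene median in every library. PDGFRa-GFP replicates 1 and 2, at 7.62 and 8.47, lay above every other library, while replicate 3 was at 6.32. In PLP-GFP against PDGFRa-GFP 0 of the 8 progenitor markers passed as higher and 1 as lower, Pdgfra, the receptor behind the reporter. Its values were 5.85, 4.98 and 6.26 in NDRG1-eGFP libraries, 1.52, 4.98 and 1.63 in PLP-GFP libraries and 6.87, 7.54 and 5.47 in PDGFRa-GFP libraries. Of 8 newly formed oligodendrocyte markers, 2 passed as higher and 1 as lower in NDRG1-eGFP against PLP-GFP (26.1% and 22.2% of all genes). In PLP-GFP against PDGFRa-GFP 0 passed as higher and 2 as lower (8.46% and 8.53% of all genes). Their median lay between 9.27 and 10.17 in NDRG1-eGFP libraries, between 10.21 and 10.31 in PLP-GFP libraries and between 9.96 and 11.79 in PDGFRa-GFP libraries. Since mature markers are high in all groups, the groups are called by their reporters. PDGFRa-GFP replicate 3 stood apart from the other libraries of its group, with Pearson correlations over all genes of 0.935 and 0.931 against 0.982 between the other two.

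Most proteasome genes had their higher values in NDRG1-eGFP cells when these were set against PLP-GFP cells. In limma-trend with Benjamini-Hochberg adjustment over all genes, 30 of the 46 passed an adjusted p of 0.05 as higher and 5 as lower, where 26.1% of all genes passed as higher and 22.2% as lower. The median log2 fold change of the 46 genes was 0.58, against 0.08 for all genes. All 46 genes passed the filter on low values. Higher were all 4 of the 20S assembly chaperones, 6 of 6 ATPases and 7 of 8 lid genes. In the 20S core, 7 of 14 genes rose and 3 fell. The 5 genes that fell were Psma3, Psma5, Psmb3, Psme2 and Psme4. The calls of 27 of the 35 genes held whichever library was left out, a share that was not computed for all called genes. The NDRG1-eGFP libraries lay above all PLP-GFP libraries in 32 of the 46 genes and below them all in 7, where 36.6% and 29.8% of all genes did so.

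Transcript length and shared sequence moved with these values. Proteasome transcripts are short, with a median of 1490.5 bases (range 555 to 6491) against 3247 for all genes, and 43 of the 46 lie under that all-gene median. Over all 11269 genes with a length, the log2 fold change of NDRG1-eGFP over PLP-GFP fell with length (Spearman's rho across genes -0.50). Of the 2095 genes between 1000 and 2000 bases long, 56.9% were higher in NDRG1-eGFP, with a median log2 fold change of 0.68 (n = 3 libraries per group). The 27 proteasome genes in that range had 22 higher, or 81.5%, with a median of 0.78.

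Shared sequence is the second property. A gene is called shared here when over 5% of the 50-base windows of its transcripts also occur in transcripts of another locus, mostly processed pseudogenes, since reads could then be split between copies. In NDRG1-eGFP against PLP-GFP, 38.0% of the 1391 shared genes were lower, against 19.9% of the 9878 other genes. Of the 11 shared proteasome genes 3 were higher and 4 lower. Of the other 35, 27 were higher and 1 lower, with a median log2 fold change of 0.76. Among genes of 1000 to 2000 bases without shared sequence, 20 of 23 proteasome genes were higher (87.0%), against 65.0% of all 1715 such genes. Their median log2 fold changes were close, at 0.80 for the proteasome genes and 0.74 for all such genes.

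When each library's trend on transcript length was removed, 12 proteasome genes stayed higher and 7 were lower, against 17.8% and 15.4% of all genes, and the median was 0.23 against 0.07 for all genes. By class, 3 of 4 core chaperones, 2 of 6 ATPases, 1 of 8 lid genes and 2 of 14 core genes were higher. The 12 were Psmb2, Psmb6, Psmb10, Psmc3, Psmc5, Psmd4, Psmd8, Psmd9, Psmf1, Psmg1, Psmg3 and Psmg4. With shared genes also left out, Psmb10, Psmd4, Psmf1 and Psmg4 stayed higher and Psma1, Psma6 and Psmb7 were lower, against 12.4% and 13.3% of the 9878 genes tested, and the median of the 35 was 0.05. By class, 1 of 3 core chaperones, 0 of 5 ATPases and 0 of 7 lid genes then were higher. The 7 lower genes, Psma3, Psma4, Psma5, Psmb3, Psmb5, Psmd2 and Psme2, all have shared sequence. Thus 12 of the 30 rises passed with the length trend removed, and 4 of those with shared genes also left out.

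Markers of other cells and of dissociation stress moved in the same comparison. Of 10 measured markers of fibroblast-like cells 9 were higher in NDRG1-eGFP cells against PLP-GFP cells and 0 lower (26.1% and 22.2% of all genes). The log2 of their summed linear values lay between 12.14 and 13.91 in NDRG1-eGFP libraries, between 7.78 and 9.07 in PLP-GFP libraries and between 13.19 and 14.14 in PDGFRa-GFP libraries. Of 21 immediate early and stress genes 15 were higher and 0 lower, to be read against the same shares of all genes. Their summed values lay between 15.32 and 18.08 in NDRG1-eGFP libraries, between 14.48 and 14.64 in PLP-GFP libraries and between 14.62 and 17.94 in PDGFRa-GFP libraries. No gene of either list was at 0, and at an unadjusted p under 0.05 none was lower. Their part in the proteasome values was not tested.

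**Figure D1:**
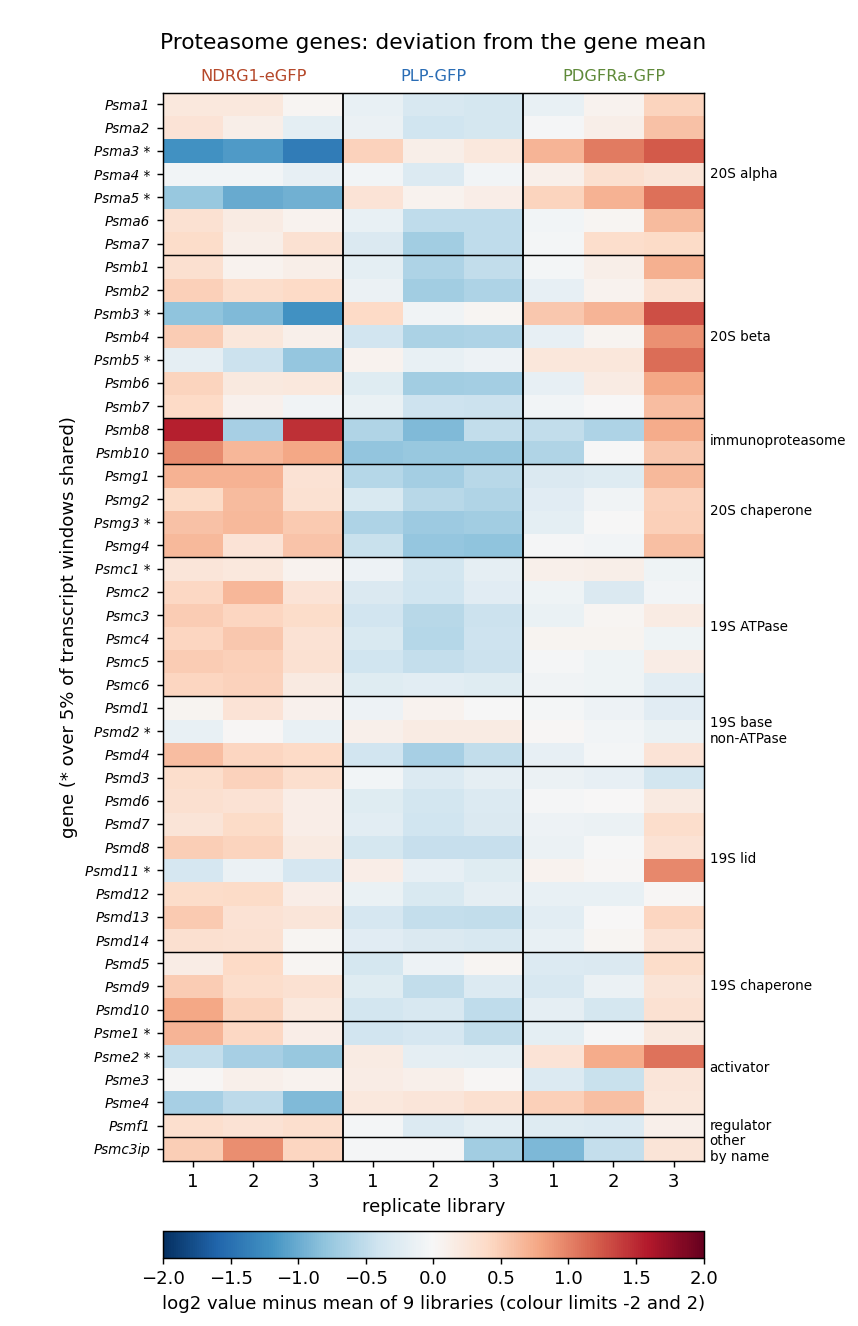
Each row is 1 of the 46 genes, grouped by class, and each column 1 library; colour gives the log2 value minus the gene's mean over 9 libraries. PLP-GFP columns are mostly blue, NDRG1-eGFP columns mostly red but deep blue in Psma3, Psma5 and Psmb3, and PDGFRa-GFP replicate 3 is redder than replicates 1 and 2.

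**Figure D2:**
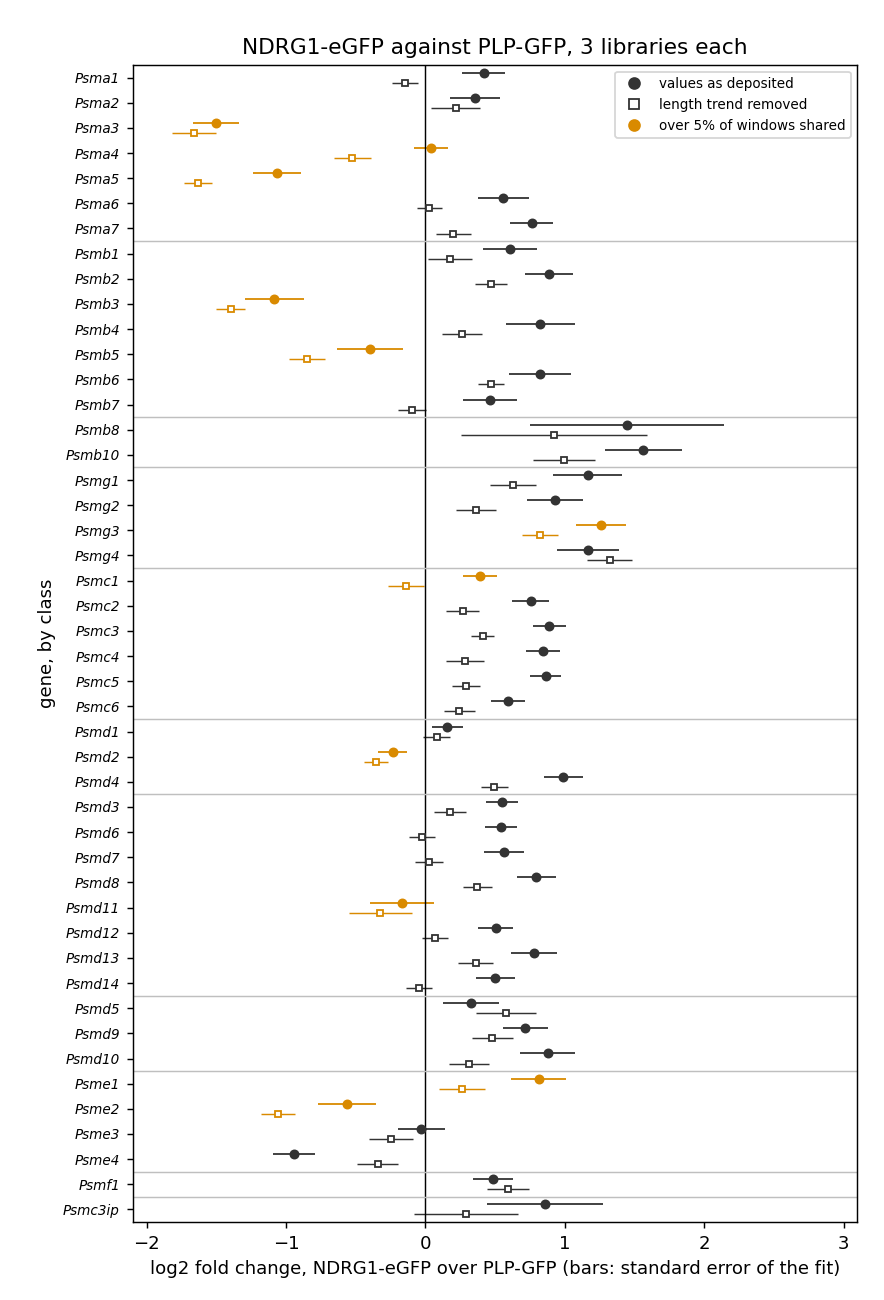
Log2 fold change of NDRG1-eGFP over PLP-GFP (3 libraries each) for each gene, with the standard error of the fit; filled circles use deposited values, open squares values with the length trend removed, and orange marks genes with over 5% of windows shared. Most squares lie left of their circles, and Psma3, Psma5 and Psmb3 lie below -1 in both.

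The alpha ring forms the outer gate of the core and gave both directions. Psma7, an alpha subunit, had values of 13.69, 13.45 and 13.64 in NDRG1-eGFP libraries, 13.04, 12.64 and 12.82 in PLP-GFP libraries and 13.29, 13.68 and 13.71 in PDGFRa-GFP libraries. The PLP-GFP libraries were below all others. It was higher in NDRG1-eGFP than in PLP-GFP by a log2 fold change of 0.76 ± 0.15 (SE, n = 3 libraries each, as throughout; limma adjusted p = 0.0026). Psma1 (0.42) and Psma6 (0.56) also passed, but Psma1 lost its call without any 1 of 7 libraries (all but PDGFRa-GFP replicates 1 and 3) and Psma6 without PLP-GFP replicate 2 or 3 or NDRG1-eGFP replicate 1 or 2. Psma2 (0.35) and Psma4 (0.04) did not pass.

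Psma3 and Psma5 ran the other way. Psma3 had values of 11.12, 11.20 and 10.93 in NDRG1-eGFP libraries, 12.78, 12.45 and 12.53 in PLP-GFP libraries and 13.00, 13.37 and 13.56 in PDGFRa-GFP libraries. The 3 groups did not overlap, and the NDRG1-eGFP libraries were lowest. The log2 fold change was -1.50 ± 0.16 against PLP-GFP (limma adjusted p = 9.57e-05) and -2.23 ± 0.16 against PDGFRa-GFP (limma adjusted p = 6.58e-06). Psma5 had values of 11.08, 10.84 and 10.88 in NDRG1-eGFP libraries, 12.12, 11.91 and 11.97 in PLP-GFP libraries and 12.29, 12.53 and 12.95 in PDGFRa-GFP libraries, again without overlap. Its log2 fold change against PLP-GFP was -1.06 ± 0.17 (limma adjusted p = 0.000771). Both calls held in every fit with 1 library left out, and with the length trend removed (-1.66 and -1.63).

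Both genes share transcript sequence with processed pseudogenes, 15.4% of windows in Psma3 and 49.1% in Psma5, so their values are uncertain. The stretches below were picked as the closest coding matches that hold at least 1 mismatch. They therefore do not show how close the copies are over their whole length. Each is 80 bases of the coding sequence from GENCODE M21 (GRCm38), beside the copy. The 1 mismatch is in capitals, and the identical run is 79 bases. Psma3 lies at chr12:70974621-70996347 (+) and its copy Gm13835 on chromosome 6, Psma5 at chr3:108256926-108279974 (+) and its copy Gm8394 on chromosome 10, Psmb5 at chr14:54614119-54618022 (-) and its copy Gm3375 on chromosome 7. Psme2 lies at chr14:55587441-55591113 (-) and its copy Psme2b, annotated as protein-coding, on chromosome 11.
Psma3: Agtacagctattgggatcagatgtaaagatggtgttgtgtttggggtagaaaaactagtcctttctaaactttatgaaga
Gm13835: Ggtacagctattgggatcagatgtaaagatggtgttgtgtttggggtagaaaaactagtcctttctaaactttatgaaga
Psma5: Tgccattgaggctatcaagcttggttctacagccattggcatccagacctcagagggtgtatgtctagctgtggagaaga
Gm8394: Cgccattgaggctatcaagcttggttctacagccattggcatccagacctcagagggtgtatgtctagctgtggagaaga
Psmb5: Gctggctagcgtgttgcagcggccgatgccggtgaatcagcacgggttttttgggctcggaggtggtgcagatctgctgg
Gm3375: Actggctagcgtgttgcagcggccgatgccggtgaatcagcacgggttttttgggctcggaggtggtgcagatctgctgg
Psme2: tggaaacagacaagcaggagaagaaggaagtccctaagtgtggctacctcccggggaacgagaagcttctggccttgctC
Psme2b: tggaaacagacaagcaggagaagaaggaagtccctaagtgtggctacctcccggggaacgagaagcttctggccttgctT

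The beta ring holds the proteolytic sites. Psmb6, the caspase-like subunit and the most abundant member per transcript length, had values of 14.24, 14.00 and 14.01 in NDRG1-eGFP libraries, 13.56, 13.10 and 13.12 in PLP-GFP libraries and 13.63, 13.97 and 14.58 in PDGFRa-GFP libraries. It was higher in NDRG1-eGFP than in PLP-GFP by 0.82 ± 0.22 (limma adjusted p = 0.0115). Psmb7, the trypsin-like subunit, had values of 12.98, 12.66 and 12.50 in NDRG1-eGFP libraries, 12.44, 12.16 and 12.15 in PLP-GFP libraries and 12.52, 12.58 and 13.19 in PDGFRa-GFP libraries. NDRG1-eGFP and PLP-GFP libraries did not overlap, but the difference of 0.47 ± 0.20 missed the threshold (limma adjusted p = 0.0709). Psmb5, the chymotrypsin-like subunit, had values of 11.85, 11.60 and 11.27 in NDRG1-eGFP libraries, 12.10, 11.89 and 11.93 in PLP-GFP libraries and 12.27, 12.27 and 13.15 in PDGFRa-GFP libraries. Its NDRG1-eGFP libraries were the lowest, with a log2 fold change of -0.40 ± 0.24 against PLP-GFP (limma adjusted p = 0.187). Of the 3 catalytic subunits only Psmb6 passed, differences between them were not tested, and 54.1% of the windows of Psmb5 are shared.

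Among the beta subunits without an active site, Psmb2 had values of 13.91, 13.79 and 13.83 in NDRG1-eGFP libraries, 13.32, 12.74 and 12.82 in PLP-GFP libraries and 13.28, 13.51 and 13.75 in PDGFRa-GFP libraries. Its rise in NDRG1-eGFP over PLP-GFP was 0.89 ± 0.17 (limma adjusted p = 0.00215). Psmb4 had values of 13.35, 13.07 and 12.94 in NDRG1-eGFP libraries, 12.46, 12.20 and 12.22 in PLP-GFP libraries and 12.67, 12.89 and 13.75 in PDGFRa-GFP libraries, and rose by 0.83 ± 0.24 (limma adjusted p = 0.018). Psmb1 had values of 13.90, 13.64 and 13.70 in NDRG1-eGFP libraries, 13.38, 12.96 and 13.08 in PLP-GFP libraries and 13.53, 13.70 and 14.29 in PDGFRa-GFP libraries, and rose by 0.61 ± 0.20 (limma adjusted p = 0.026). In all 3 genes the NDRG1-eGFP libraries lay above the PLP-GFP libraries. The call of Psmb4 was lost without PLP-GFP replicate 2 or 3 or NDRG1-eGFP replicate 1, and that of Psmb1 also without NDRG1-eGFP replicate 3. Psmb3, with 17.8% of windows shared, was the exception, with values of 11.45, 11.38 and 11.05 in NDRG1-eGFP libraries, 12.65, 12.19 and 12.30 in PLP-GFP libraries and 12.79, 12.94 and 13.55 in PDGFRa-GFP libraries. It fell in NDRG1-eGFP against PLP-GFP by 1.08 on the log2 scale (SE 0.21, limma adjusted p = 0.0022), and the 3 groups did not overlap.

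In the 19S cap, 14 of 17 subunits were higher in NDRG1-eGFP cells against PLP-GFP cells and 0 lower (26.1% and 22.2% of all genes) at an adjusted p of 0.05 in limma, and at an unadjusted p under 0.05, 1 gene, Psmd2, was lower. With the length trend removed 4 of the 17 were higher and 1 lower, and with shared genes also left out 1 of 14 was higher and the median was 0.05. The ATPases form the ring that unfolds substrates. Psmc3 had values of 14.33, 14.24 and 14.18 in NDRG1-eGFP libraries, 13.44, 13.26 and 13.39 in PLP-GFP libraries and 13.69, 13.85 and 13.98 in PDGFRa-GFP libraries. The 3 groups did not overlap, and the rise over PLP-GFP was 0.89 ± 0.12 (limma adjusted p = 0.000271). Psmc5 had values of 13.50, 13.47 and 13.31 in NDRG1-eGFP libraries, 12.60, 12.52 and 12.57 in PLP-GFP libraries and 12.97, 12.91 and 13.15 in PDGFRa-GFP libraries, and rose by 0.86 ± 0.11 (limma adjusted p = 0.000285). Psmc4 had values of 13.29, 13.40 and 13.15 in NDRG1-eGFP libraries, 12.56, 12.29 and 12.45 in PLP-GFP libraries and 12.92, 12.91 and 12.77 in PDGFRa-GFP libraries, and rose by 0.85 ± 0.12 (limma adjusted p = 0.000455). In these genes the PDGFRa-GFP libraries lay between the other groups.

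Psmc2 and Psmc6 differed in that PLP-GFP and PDGFRa-GFP libraries were close. Psmc2 had values of 13.47, 13.72 and 13.32 in NDRG1-eGFP libraries, 12.76, 12.66 and 12.82 in PLP-GFP libraries and 12.96, 12.76 and 12.99 in PDGFRa-GFP libraries. It was higher in NDRG1-eGFP than in PLP-GFP by 0.76 ± 0.13 (limma adjusted p = 0.00124) and than in PDGFRa-GFP by 0.60 ± 0.13 (limma adjusted p = 0.0111). Psmc6 had values of 12.19, 12.21 and 11.94 in NDRG1-eGFP libraries, 11.52, 11.54 and 11.51 in PLP-GFP libraries and 11.69, 11.67 and 11.54 in PDGFRa-GFP libraries, and rose by 0.59 ± 0.12 over PLP-GFP (limma adjusted p = 0.00302). Psmc1, with 14.1% of windows shared, rose by 0.39 ± 0.12 over PLP-GFP (limma adjusted p = 0.0215), a call lost without PLP-GFP replicate 2 or 3 or NDRG1-eGFP replicate 1 or 2.

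Of the base subunits without ATPase activity, the ubiquitin receptor Psmd4 had values of 13.81, 13.62 and 13.58 in NDRG1-eGFP libraries, 12.81, 12.53 and 12.70 in PLP-GFP libraries and 13.03, 13.14 and 13.46 in PDGFRa-GFP libraries. The 3 groups did not overlap, and the rise over PLP-GFP was 0.99 ± 0.14 (limma adjusted p = 0.000454). The call held in every fit with 1 library left out, with the length trend removed (0.49) and with shared genes also left out (0.33). The scaffold subunits Psmd1 (0.16) and Psmd2 (-0.23, 17.8% of windows shared) did not pass.

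In the lid, Psmd8 had values of 13.25, 13.21 and 12.93 in NDRG1-eGFP libraries, 12.41, 12.29 and 12.29 in PLP-GFP libraries and 12.64, 12.75 and 13.05 in PDGFRa-GFP libraries, and rose by 0.80 ± 0.14 over PLP-GFP (limma adjusted p = 0.00139). Psmd13 had values of 13.26, 13.02 and 12.98 in NDRG1-eGFP libraries, 12.40, 12.26 and 12.25 in PLP-GFP libraries and 12.53, 12.75 and 13.17 in PDGFRa-GFP libraries, and rose by 0.78 ± 0.17 (limma adjusted p = 0.0034). Psmd7 had values of 13.27, 13.38 and 13.14 in NDRG1-eGFP libraries, 12.80, 12.60 and 12.71 in PLP-GFP libraries and 12.90, 12.89 and 13.35 in PDGFRa-GFP libraries, and rose by 0.56 ± 0.15 (limma adjusted p = 0.00958). In each the NDRG1-eGFP libraries were above all PLP-GFP libraries. Psmd3 had values of 13.64, 13.75 and 13.62 in NDRG1-eGFP libraries, 13.24, 13.02 and 13.11 in PLP-GFP libraries and 13.17, 13.13 and 12.92 in PDGFRa-GFP libraries. It was above both other groups, by 0.55 ± 0.12 over PLP-GFP (limma adjusted p = 0.0035) and 0.60 ± 0.12 over PDGFRa-GFP (limma adjusted p = 0.00634). Psmd14, the lid enzyme that removes ubiquitin, Psmd6 and Psmd12 rose by 0.50 to 0.54. The call of Psmd14 was lost without PLP-GFP replicate 3 or NDRG1-eGFP replicate 1 or 2. Psmd11 (-0.17, 7.34% of windows shared) did not pass.

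The cap chaperones hold partly built bases until they dock. Psmd10, also known as gankyrin, had values of 11.55, 11.23 and 11.00 in NDRG1-eGFP libraries, 10.41, 10.46 and 10.28 in PLP-GFP libraries and 10.60, 10.43 and 11.08 in PDGFRa-GFP libraries, and rose by 0.88 ± 0.20 over PLP-GFP (limma adjusted p = 0.00494). Psmd9 had values of 12.28, 12.12 and 12.08 in NDRG1-eGFP libraries, 11.53, 11.28 and 11.50 in PLP-GFP libraries and 11.45, 11.65 and 12.02 in PDGFRa-GFP libraries, and rose by 0.72 ± 0.16 (limma adjusted p = 0.00461). Both genes separated NDRG1-eGFP from PLP-GFP libraries completely, while Psmd5 (0.33) overlapped and did not pass.

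The 20S assembly chaperones, which guide the alpha ring together before the beta subunits join, had the largest median of any class of 3 or more genes, 1.16. Psmg3 had values of 10.77, 10.84 and 10.72 in NDRG1-eGFP libraries, 9.58, 9.47 and 9.49 in PLP-GFP libraries and 9.99, 10.19 and 10.67 in PDGFRa-GFP libraries. The 3 groups did not overlap, and the rise over PLP-GFP was 1.26 ± 0.18 (limma adjusted p = 0.000463). Psmg4 had values of 9.84, 9.47 and 9.77 in NDRG1-eGFP libraries, 8.76, 8.42 and 8.40 in PLP-GFP libraries and 9.18, 9.15 and 9.80 in PDGFRa-GFP libraries, and rose by 1.17 ± 0.23 (limma adjusted p = 0.00214). Psmg1 had values of 10.69, 10.69 and 10.28 in NDRG1-eGFP libraries, 9.42, 9.32 and 9.44 in PLP-GFP libraries and 9.71, 9.74 and 10.64 in PDGFRa-GFP libraries, and rose by 1.16 ± 0.25 (limma adjusted p = 0.00353). In both, the PLP-GFP libraries were the lowest and PDGFRa-GFP replicate 3 reached the NDRG1-eGFP range. Psmg2, the partner of Psmg1, rose by 0.93 ± 0.20 (limma adjusted p = 0.00373). With the length trend removed, Psmg1 (0.63), Psmg3 (0.82) and Psmg4 (1.32) kept their calls. Psmg4 has the shortest transcript of the 46 genes, 555 bases, and its fold change grew on removal. All genes of up to 1000 bases had a median of 0.84 as deposited, so its value at this edge of the length trend is uncertain. With shared genes also left out, Psmg4 kept its call at 0.65, Psmg1 was at 0.26 (limma adjusted p = 0.282), and Psmg3 was among those left out, with 7.89% of windows shared.

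Pomp, the maturation factor that completes the core, is named by another symbol and was read as a partner. It had values of 13.11, 12.95 and 13.02 in NDRG1-eGFP libraries, 12.28, 11.97 and 12.07 in PLP-GFP libraries and 12.47, 12.73 and 13.41 in PDGFRa-GFP libraries. It rose in NDRG1-eGFP over PLP-GFP by 0.92 ± 0.21 (limma adjusted p = 0.00504). Pomp has a long annotated transcript of 3850 bases, and with the length trend removed its log2 fold change was 1.04 (limma adjusted p = 0.00708).

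**Figure D3:**
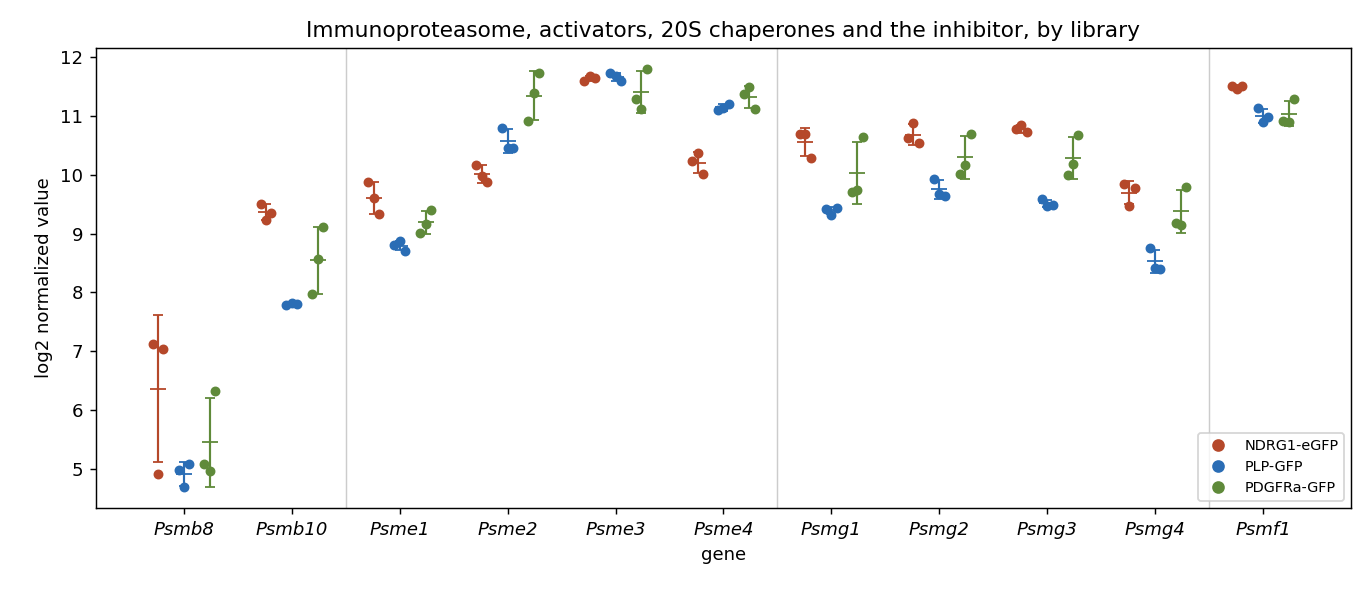
Log2 normalized values per library (points) with the group mean and SD (bars, n = 3) for immunoproteasome subunits, activators, 20S chaperones and the inhibitor Psmf1. Psmb10 and the 4 chaperones are higher in all NDRG1-eGFP than in all PLP-GFP libraries, Psme2 and Psme4 lower, and Psmb8 has 1 NDRG1-eGFP library at 4.92 and 2 above 7.

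The immunoproteasome subunits were among the least abundant members, at a mean log2 value per kilobase of 4.87 for Psmb8 and 8.18 for Psmb10. Psmb10 had values of 9.51, 9.23 and 9.35 in NDRG1-eGFP libraries, 7.78, 7.82 and 7.81 in PLP-GFP libraries and 7.97, 8.57 and 9.11 in PDGFRa-GFP libraries. The groups did not overlap, and its rise over PLP-GFP of 1.56 ± 0.28 was the largest of the 46 genes (limma adjusted p = 0.00132). The call held with the length trend removed (0.99) and with shared genes also left out (0.73). Psmb8 had values of 7.13, 4.92 and 7.04 in NDRG1-eGFP libraries, 4.98, 4.69 and 5.08 in PLP-GFP libraries and 5.08, 4.96 and 6.32 in PDGFRa-GFP libraries. NDRG1-eGFP replicate 2 lay within the PLP-GFP range, and the difference of 1.45 ± 0.69 did not pass (limma adjusted p = 0.108).

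Microglia are a known source of immunoproteasome RNA in brain, and their markers moved in the same comparison. Of 17 measured microglial markers, 10 were higher in NDRG1-eGFP cells against PLP-GFP cells and 1 was lower (26.1% and 22.2% of all genes). None of the markers was at 0. Their median was 8.83, 7.91 and 8.33 in NDRG1-eGFP libraries, 7.03, 7.12 and 6.75 in PLP-GFP libraries and 7.87, 8.16 and 7.39 in PDGFRa-GFP libraries. The log2 of their summed linear values lay between 13.28 and 13.80 in NDRG1-eGFP libraries, between 13.06 and 13.45 in PLP-GFP libraries and between 13.16 and 13.55 in PDGFRa-GFP libraries. The markers' part in the Psmb10 result was not tested. Of 12 measured interferon and antigen processing partners, 5 were higher in NDRG1-eGFP cells against PLP-GFP cells and 0 lower in limma, where 26.1% and 22.2% of all genes were. The counts were the same at an unadjusted p under 0.05. The 3 with the smallest adjusted p were H2-D1, an MHC class I chain (1.04 ± 0.30, limma adjusted p = 0.0151), the interferon gamma receptor chain Ifngr2 (0.74 ± 0.21, limma adjusted p = 0.0157) and Irf8, a transcription factor of myeloid cells (1.71 ± 0.50, limma adjusted p = 0.0175). The peptide transporter genes Tap1 (0.23) and Tap2 (-0.04) did not pass. With the length trend removed 2 of the 12 partners were higher and 0 lower, where 17.8% and 15.4% of all genes were. Their median log2 fold change was then 0.21, against 0.45 as deposited.

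The activators open the core's gate in place of the 19S cap, and they split. Psme1 and Psme2 encode the chains of the interferon-inducible PA28 ring. Psme1 had values of 9.88, 9.61 and 9.34 in NDRG1-eGFP libraries, 8.81, 8.87 and 8.71 in PLP-GFP libraries and 9.01, 9.17 and 9.40 in PDGFRa-GFP libraries, and rose by 0.81 ± 0.20 over PLP-GFP (limma adjusted p = 0.00683). Psme2 had values of 10.17, 9.98 and 9.88 in NDRG1-eGFP libraries, 10.80, 10.46 and 10.45 in PLP-GFP libraries and 10.91, 11.39 and 11.73 in PDGFRa-GFP libraries. It fell by 0.56 on the log2 scale against PLP-GFP (SE 0.21, limma adjusted p = 0.0474), a call lost without any 1 library except PDGFRa-GFP replicate 1 or 3. Thus the partners of 1 ring moved in opposite directions in the values as deposited. With the length trend removed Psme1 no longer passed (0.26, limma adjusted p = 0.247), while Psme2 stayed lower (-1.06, limma adjusted p = 0.000154). Their shared windows were 5.47% for Psme1 and 28.3% for Psme2.

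Psme3, the nuclear PA28 gamma, had values of 11.59, 11.67 and 11.64 in NDRG1-eGFP libraries, 11.72, 11.67 and 11.59 in PLP-GFP libraries and 11.29, 11.12 and 11.80 in PDGFRa-GFP libraries, and the groups overlapped. Psme4 encodes PA200, a large nuclear activator. It had values of 10.23, 10.37 and 10.01 in NDRG1-eGFP libraries, 11.10, 11.13 and 11.21 in PLP-GFP libraries and 11.37, 11.49 and 11.12 in PDGFRa-GFP libraries. All NDRG1-eGFP libraries were below both other groups, by a log2 fold change of -0.94 ± 0.15 against PLP-GFP (limma adjusted p = 0.000785) and -1.13 ± 0.15 against PDGFRa-GFP (limma adjusted p = 0.000661). Psme4 has the longest transcript of the 46 genes, 6491 bases, and 0 shared windows. With the length trend removed it was lower than in PDGFRa-GFP by 0.86 (limma adjusted p = 0.00288), whereas the difference from PLP-GFP no longer passed (-0.34, limma adjusted p = 0.0959).

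Psmf1, the inhibitor PI31, had values of 11.51, 11.46 and 11.51 in NDRG1-eGFP libraries, 11.13, 10.90 and 10.98 in PLP-GFP libraries and 10.92, 10.90 and 11.28 in PDGFRa-GFP libraries. The NDRG1-eGFP libraries were above all others. It rose by 0.49 ± 0.14 over PLP-GFP (limma adjusted p = 0.017) and, at 3809 bases, kept the call with the length trend removed (0.59), but lost it without PLP-GFP replicate 2 or 3. Psmc3ip ran between 5.64 and 7.47 over all libraries and passed in no comparison.

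**Figure D4:**
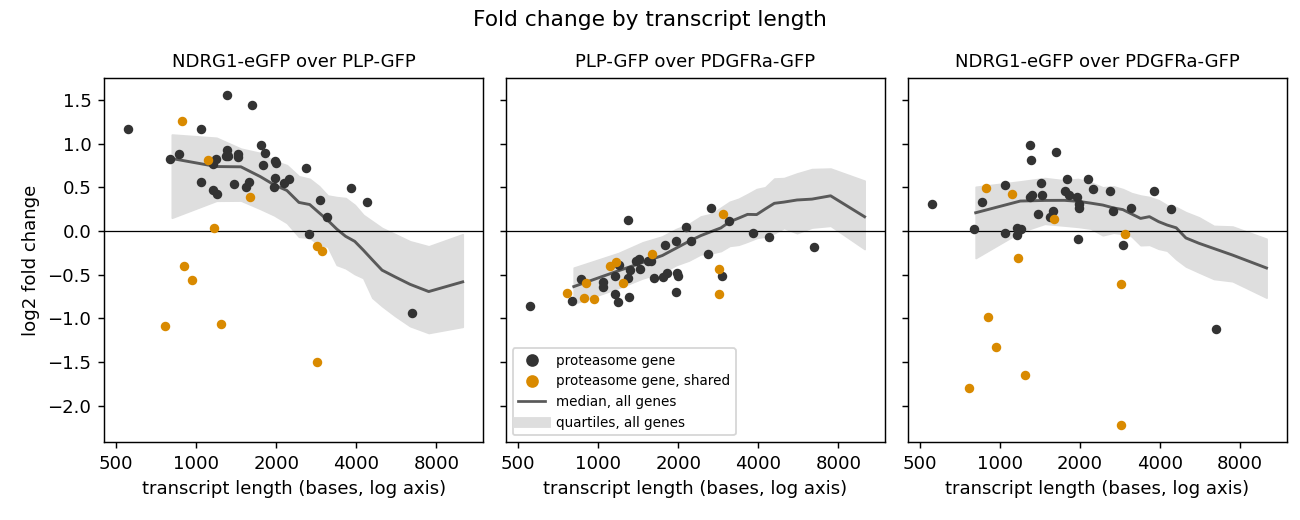
Log2 fold change against transcript length (log axis) in the 3 comparisons; points are the 46 genes, orange those with shared sequence, the line is the median and the band the quartiles of all genes in 20 length bins. In the left panel most genes without shared sequence lie within the band, and the orange points below -1 in the outer panels are Psma3, Psma5, Psmb3 and, against PDGFRa-GFP, Psme2.

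In PLP-GFP against PDGFRa-GFP, 16 of the 46 genes were lower by the same test and 0 higher, where 8.53% of all genes passed as lower and 8.46% as higher, and the median log2 fold change was -0.46 against 0.03 for all genes. At an unadjusted p under 0.05, 29 were lower and 0 higher. Markers of other cells moved in this comparison too. Of the 10 fibroblast-like markers 9 were lower and 0 higher, with a median log2 fold change of -5.49, and of the 21 immediate early and stress genes 7 were lower and 0 higher, with a median of -2.69. At an unadjusted p under 0.05 the counts were 9 and 17 lower and again 0 higher, and their part in the proteasome values was not tested. Of the 16 lower proteasome genes, 8 belong to the 20S core (Psma3, Psma5, Psma7, Psmb1, Psmb2, Psmb3, Psmb4 and Psmb6) and 5 to the cap (Psmc3, Psmc4, Psmc5, Psmd4 and Psmd8). The others were Psme2, Psmg3 and Psmg4. The largest were Psmg4 (-0.85 ± 0.23, limma adjusted p = 0.0303), Psmb4 (-0.81 ± 0.24, limma adjusted p = 0.0466) and Psmb6 (-0.80 ± 0.22, limma adjusted p = 0.036).

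These calls depended on which libraries were in the fit. Without PLP-GFP replicate 2 or 3 none of the 46 genes was called lower, where 1.64% and 1.99% of all genes were. Without PDGFRa-GFP replicate 2 there was 1, where 3.38% of all genes were lower. Without NDRG1-eGFP replicate 2, which enters through the shared variance, there were 8, where 6.44% of all genes were lower. With the length trend removed 1 gene, Psma3, was called (-0.70, limma adjusted p = 0.0254), where 4.41% of all genes were lower. With shared genes also left out 0 of 35 were lower, where 4.21% of all genes were. Fold change rose with transcript length over all genes in this comparison (rho 0.46), and all genes of 1000 to 2000 bases had a median of -0.34, against -0.48 for the 27 proteasome genes of that length.

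In NDRG1-eGFP against PDGFRa-GFP, 8 of the 46 genes were higher, Psmc2, Psmc3, Psmc4, Psmc5, Psmc6, Psmd3, Psmd4 and Psmf1, and lower were 6, Psma3, Psma5, Psmb3, Psmb5, Psme2 and Psme4, where 10.7% of all genes passed as higher and 10.4% as lower. In the cap 7 of 17 genes were higher and 0 lower, with a median log2 fold change of 0.31. In the core 0 of 14 were higher and 4 lower, with a median of -0.07, and all 4 have shared sequence. Over the 9 core genes without it the median was 0.02, over the 14 such cap genes 0.40, and the difference between core and cap was not tested. With the length trend removed, 1 of 17 cap genes was higher and 1 lower. Of the 27 proteasome genes of 1000 to 2000 bases 18.5% were higher, with a median of 0.31, against 19.4% and 0.34 for all genes of that length, and among those without shared sequence 21.7% against 22.3%. Besides the falls of Psma3, Psmb3 (-1.80 ± 0.21, limma adjusted p = 0.000262) and Psma5 (-1.66 ± 0.17, limma adjusted p = 9.12e-05) fell most.

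The higher calls of this comparison depended on PDGFRa-GFP replicate 3. Without it 23 genes were higher and 6 lower, where 24.8% and 16.1% of all genes were, and 2804 genes in all were higher against 1207 with it. With any other 1 library left out 2 to 6 proteasome genes were higher, where 3.95% to 8.15% of all genes were. With 6 such libraries left out singly there were 2 or 3: PDGFRa-GFP replicates 1 and 2, PLP-GFP replicates 2 and 3, and NDRG1-eGFP replicates 1 and 2. After recentring each library on the median ratio, 2 were higher and 8 lower, while the split over all 11315 genes changed to 591 higher (5.22%) and 1362 lower, against 1207 and 1176 as deposited. Of the higher genes only 1, Psmd3, kept its call with the length trend removed, while Psmb2, Psmg3 and Psmg4 were newly called. In that setting 4 were higher and 8 lower, where 8.77% and 9.03% of all genes were. With shared genes also left out 0 of 35 were higher and 4 lower, where 2.91% and 4.93% of all genes were. Psmc2 and Psmd3 were the higher genes whose call held in every fit with 1 library left out. The lower calls of Psma3, Psma5, Psmb3, Psme2 and Psme4 held in all of these fits, and Psmb5 (-0.99 ± 0.24, limma adjusted p = 0.0165) lost its call without NDRG1-eGFP replicate 2 or 3.

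The 3 comparisons share libraries, so a gene low in PLP-GFP cells moves in both steps. Of the 46 genes, 12 passed as lower in PLP-GFP cells against PDGFRa-GFP cells and as higher in NDRG1-eGFP cells against PLP-GFP cells. Of these, 4 (Psmc3, Psmc4, Psmc5 and Psmd4) were also higher in NDRG1-eGFP than in PDGFRa-GFP. Psma3, Psma5, Psmb3 and Psme2 were lower in all 3 comparisons, and 10 genes passed in none. The median deviation of the 46 genes from their means was 0.36, 0.28 and 0.14 in NDRG1-eGFP libraries, -0.22, -0.38 and -0.35 in PLP-GFP libraries and -0.11, 0.00 and 0.33 in PDGFRa-GFP libraries. Each library's Spearman correlation across genes between deviation and transcript length had the opposite sign or was near 0, at -0.48, -0.41 and -0.27 in NDRG1-eGFP libraries, 0.37, 0.53 and 0.50 in PLP-GFP libraries and 0.24, 0.03 and -0.31 in PDGFRa-GFP libraries.

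Partners of the proteasome gave a mixed picture. Of 11 measured assembly and cap partners, 2 were higher in NDRG1-eGFP cells against PLP-GFP cells and 4 lower (26.1% and 22.2% of all genes). The balance turned round once each library's trend on transcript length was taken out. Then 4 partners had a higher call and 3 a lower one (17.8% and 15.4% of all genes). The largest fall as deposited was that of Adrm1, a ubiquitin receptor of the cap. Adrm1 had values of 10.39, 10.44 and 10.43 in NDRG1-eGFP libraries, 12.03, 11.79 and 11.91 in PLP-GFP libraries and 12.12, 12.24 and 12.31 in PDGFRa-GFP libraries, and 25.7% of its windows are shared. It fell by 1.49 on the log2 scale against PLP-GFP (SE 0.12, limma adjusted p = 1.43e-05). Ube3c, a ubiquitin ligase that works at the proteasome, fell by 1.16 (SE 0.20, limma adjusted p = 0.00114), and AI314180, an older symbol of the scaffold gene Ecpas, fell by 0.97 (SE 0.19, limma adjusted p = 0.00227) but not with the length trend removed (-0.33, limma adjusted p = 0.0635). Shfm1, the small lid subunit also called Sem1, rose by 0.87 ± 0.20 (limma adjusted p = 0.00489). Its call was likewise lost once that trend was taken out (0.32, limma adjusted p = 0.111).

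Of 5 genes that control subunit transcription, Vcp, the segregase that acts ahead of Nfe2l1 processing, was lower in NDRG1-eGFP cells against PLP-GFP cells (-2.04 ± 0.13, limma adjusted p = 2.11e-06), with 40.5% of windows shared. Nfe2l1, the factor that raises proteasome genes when the proteasome is inhibited, was higher in PLP-GFP than in PDGFRa-GFP (0.92 ± 0.21, limma adjusted p = 0.0208). The median of the 46 proteasome genes there was -0.46. Fold change rose with transcript length over all genes in that comparison (rho 0.46), and a relation of Nfe2l1 to the subunits was not tested. Nfe2l1 did not pass in NDRG1-eGFP against PLP-GFP (-0.52 ± 0.21, limma adjusted p = 0.0662). Shuttle receptors bring ubiquitinated proteins to the cap. Of 5 measured, 1 was higher and 2 were lower in NDRG1-eGFP cells against PLP-GFP cells (26.1% and 22.2% of all genes). The lower ones were Ubqln2 (-1.07 ± 0.17, limma adjusted p = 0.000765) and Rad23b (-1.01 ± 0.16, limma adjusted p = 0.000781). Ubqln1 was higher in PLP-GFP than in PDGFRa-GFP (0.75 ± 0.17, limma adjusted p = 0.0201).

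As levels per kilobase of transcript (log2 value less log2 of the length in kilobases, mean of 9 libraries), Psmb6 at 14.13 and Psmb2 at 13.66 were highest, followed by Psma7 and Psma6 at 13.12. Psmb8, Psmc3ip at 6.17, Psmb10 and Psme4 at 8.20 were lowest. It is not stated whether the deposited values were already divided by length.

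Promoters were searched for 6 short motifs in RefSeq sequence (GRCm38.p6) from 250 bases before to 50 after the start, available for 39 of the 46 genes and 8726 measured genes, on both strands. The antioxidant response element core TGACNNNGC (reverse GCNNNGTCA), in whose kind Nfe2l1 and Nfe2l2 bind, occurred in 6 of 39 (15.4%), against 17.1% of measured genes and 14.0% of all 27025 promoters. The interferon-stimulated response element core, 2 copies of GAAA with 2 bases between them (TTTC likewise on the other strand), occurred in 5 (12.8%), in Psmb3, Psmd4, Psmd9, Psme1 and Psmg4, against 3.35% and 3.99%. The gamma-activated site TTCNNNGAA, its own reverse complement, occurred in 3 (7.69%), against 8.25% and 9.55%. The ETS family core CCGGAAG (reverse CTTCCGG) occurred in 15 (38.5%), against 20.7% and 9.93%. The GC box GGGCGG (reverse CCGCCC) occurred in 22 (56.4%), against 70.7% and 38.2%, and CCAAT (reverse ATTGG) in 13 (33.3%), against 43.6% and 41.1%. No letters of one motif overlap another among those printed, and a match is a description of the letters, not a binding site.

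The promoters of 3 genes are shown, 300 bases each: Psmb6 as the most abundant core subunit (chr11:70525107-70525406, +), Psmd4 as the cap subunit whose rise held with the length trend removed and shared genes left out (chr3:95042565-95042864, -), and Psmb8 as the immunoproteasome subunit (chr17:34197945-34198244, +). Capitals mark TGACNNNGC in Psmb6, starting at position -9 from the transcription start, CCGGAAG and then the interferon-stimulated core in Psmd4, starting at positions -125 and -80, and TTCNNNGAA in Psmb8, at position -97.
Psmb6 promoter: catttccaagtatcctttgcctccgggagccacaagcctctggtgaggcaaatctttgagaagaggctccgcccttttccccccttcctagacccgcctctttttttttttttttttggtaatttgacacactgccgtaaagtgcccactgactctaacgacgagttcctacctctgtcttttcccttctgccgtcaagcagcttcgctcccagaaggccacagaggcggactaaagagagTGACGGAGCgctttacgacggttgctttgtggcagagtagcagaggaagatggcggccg
Psmd4 promoter: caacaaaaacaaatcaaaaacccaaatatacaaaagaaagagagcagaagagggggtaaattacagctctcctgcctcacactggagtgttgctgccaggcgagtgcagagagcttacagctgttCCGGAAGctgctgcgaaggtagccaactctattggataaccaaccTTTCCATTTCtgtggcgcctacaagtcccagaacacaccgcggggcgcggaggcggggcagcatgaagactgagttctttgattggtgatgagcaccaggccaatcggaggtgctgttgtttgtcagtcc
Psmb8 promoter: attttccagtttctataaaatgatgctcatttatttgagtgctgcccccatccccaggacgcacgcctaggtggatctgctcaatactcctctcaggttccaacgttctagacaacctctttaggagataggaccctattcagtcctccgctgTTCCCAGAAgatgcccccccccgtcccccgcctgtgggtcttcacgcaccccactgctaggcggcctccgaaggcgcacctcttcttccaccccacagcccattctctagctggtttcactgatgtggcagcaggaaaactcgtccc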

How the data were processed

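Libraries were grouped by the reporter in their labels. Each deposited file holds 1 library's normalized values on a log scale, per the file headers. The base is not stated and was taken as log2, an assumption on which all fold changes rest. The linear values then sum to 61200000 in every library. These equal sums cannot decide the base, because the libraries hold nearly the same sorted values. Sorted by size, the values of the 9 libraries lay within 0.1 of each other at 98.2% of ranks (at most 1.49 apart), and depth is unknown. BWA, DESeq2 1.2.5 and mm10 are named in the submitters' processing notes without their roles, and strand use in counting is not given in the sources used here.

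The test planned for normalized linear values was fitted to the deposited log2 values as they stand, with no added constant: limma-trend (limma 3.58.1, R 4.3.3), all 9 libraries in 1 fit, two-sided, with Benjamini-Hochberg adjustment over 11315 genes and calls at an adjusted p of 0.05. Genes under a value of 1 in 7 or more of the 9 libraries would have been left out, which removed 0 genes. Fold changes are differences of log2 means, and ± is the standard error of the fit. An exact permutation of 3 against 3 libraries cannot go below p = 0.1 and was not used.

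Lengths are of the longest protein-coding transcript in GENCODE M21 (GRCm38), matched for 11269 genes. The length trend was removed as a loess curve (span 0.5) of each library's deviation from the gene mean on log2 length. The members and lists were chosen with earlier results of these data known. Library values are printed for immunoproteasome, activator and catalytic genes, for up to 3 called genes with the largest fold change per class and comparison, and for genes called in both steps; partners are up to 3 per list and comparison with the smallest adjusted p, besides others named for their place in the pathway, and 1 partner is not reported here. The fit was tested on simulated data. Alternatives were recentring, filters, added constants, the replicate number as a block, fits restricted to the compared groups, stricter thresholds, robust empirical Bayes, length and sharing settings, and leaving out each library. Psma8, Psmb9, Psmb11 and Psme2b were not analysed here.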

Additional observations from a re-analysis of the deposited data

How the results depend on the processing

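The counts of genes called in NDRG1-eGFP against PLP-GFP (30 higher, 5 lower) were 23 to 32 and 4 to 7 with 1 library left out. They were 4 and 3 when calls also needed a 2-fold change. Removing the length trend left 12 higher, and 9 with a replicate block as well. With shared genes left out 1 was lower, and with the length trend also removed 4 were higher and 3 lower of 35. In PLP-GFP against PDGFRa-GFP (0 higher, 16 lower) the counts were 0 to 1 and 0 to 21 with 1 library left out. The lower count was 2 in a fit of only the groups compared, 0 at an adjusted p under 0.01 or with a 2-fold change required, 1 with the length trend removed, 10 with shared genes left out and 0 with both. In NDRG1-eGFP against PDGFRa-GFP (8 higher, 6 lower) they were 2 to 23 and 5 to 6 with 1 library left out. The higher count was 2 after recentring on the median ratio, 2 in a fit of only the groups compared, 1 at an adjusted p under 0.01, 0 with a 2-fold change required, 4 with the length trend removed and 0 with shared genes also left out. The lower count was 1 with shared genes left out. Shared genes were not tested once they were left out. They made up 4 of the 5 lower genes in NDRG1-eGFP against PLP-GFP and 5 of the 6 in NDRG1-eGFP against PDGFRa-GFP. In PLP-GFP against PDGFRa-GFP they made up 5 of the 16. For the other changes the cause was not tested.

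Whether the replicate numbers in the titles pair the libraries is not given. Same-numbered libraries correlated in their deviations from the group means at -0.23 to 0.09. Not every library correlated best with its own number. With 3 libraries per group these correlations cannot decide whether libraries are paired. With the replicate block 1 gene was lower in PLP-GFP against PDGFRa-GFP and 2 were higher in NDRG1-eGFP against PDGFRa-GFP; with block and length trend removed these were 0 and 2.

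Some log2 fold changes of NDRG1-eGFP over PLP-GFP changed sign. With the length trend removed, with or without the block, Psma1 was at -0.15, Psmc1 at -0.14, Psmd6 at -0.024 and Psmd14 at -0.044. With shared genes also left out, Psma1 was at -0.45, Psma6 at -0.34, Psma7 at -0.12, Psmb4 at -0.051, Psmb6 at -0.02, Psmd6 at -0.27, Psmd7 at -0.17, Psmd12 at -0.079 and Psmd14 at -0.25. Against PDGFRa-GFP, in that setting, Psmc4 was at -0.009, Psmc5 at -0.014 and the median of the 35 genes at -0.014. The cause was not tested. Unknown depth limits how far low values such as those of Psmb8 can be read.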
